A study of Mus musculus with 2 samples.

Results

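The genes described here are the clustered histone genes of the mouse, which encode the linker histone H1 and the core histones H2A, H2B, H3 and H4. They were taken as every gene of the count tables whose symbol begins with Hist1h, Hist2h, Hist3h or Hist4h, which gave 67 of 32285 listed genes. Of these, 6 encode H1, 18 encode H2A, 18 encode H2B, 12 encode H3 and 13 encode H4. The choice used names only and no measured value. In the text they are divided into 58 replication-type genes, 6 genes known to make polyadenylated mRNA as well (Hist1h1c, Hist1h2bc, Hist1h2be, Hist2h2be, Hist3h2a and Hist3h2ba) and 3 genes known for their use in the testis (Hist1h1t, Hist1h2aa and Hist1h2ba).

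The data are single-cell RNA counts from the testes of 1 control mouse and 1 Brca1 vKO mouse, both at postnatal day 7 (PD7), the age at which undifferentiated spermatogonia are being established. The study asked how germ cells of the young testis fare without the DNA repair protein BRCA1. The Brca1 vKO mouse was Brca1 f/- with a Vasa-Cre transgene, which removes the floxed allele in germ cells from late embryonic life, so that all of its other cells carry 1 deleted and 1 floxed Brca1 allele. The control was a littermate, and its alleles are not given in more detail by the labels. More Brca1 vKO cells were loaded for sequencing. With 1 library per genotype there is no replicate, so no test between genotypes was possible, and a difference between genotypes and one between these 2 mice or libraries cannot be told apart. All intervals below are exact intervals at 95% and cover counting error only.

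Most histone genes work only while DNA is copied. Their mRNAs rise when a cell enters S phase and are destroyed when it leaves, which ties the supply of histones to the new DNA that has to be packed. Unlike other mRNAs they have no poly(A) tail and end just after a short hairpin, the stem-loop, which the stem-loop binding protein SLBP holds during processing, translation and decay. Genes for replacement variants such as H2afz and H3f3b lie elsewhere in the genome and make ordinary polyadenylated mRNA that is not confined to S phase, though its level can differ between cycling and other cells. Germ cells in addition use histone variants of their own, made in spermatogonia and spermatocytes ahead of the exchange of histones in later sperm development. The libraries were made by priming on poly(A), so a replication-type mRNA was counted only where it carried some adenosine stretch or tail, and levels of different genes therefore need not reflect their numbers of molecules alike.

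The stem-loop is shown first because it is what separates these mRNAs from the rest of the transcriptome and bears on how they are captured. In the GRCm38 assembly with the GENCODE M21 annotation, a hairpin of 6 paired bases and a loop of 4 bases was found in the annotated mRNA after the stop codon in 45 of the 67 genes. In 17 others fewer than 60 bases were annotated there, so the hairpin could not be looked for in full, and 5 had a longer end without it. The sites of 7 abundant or characteristic members follow, with the paired bases and the loop in capitals and up to 5 bases on either side.
Hist1h1e: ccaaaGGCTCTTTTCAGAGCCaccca
Hist1h2ap: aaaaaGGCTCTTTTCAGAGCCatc
Hist1h2ae: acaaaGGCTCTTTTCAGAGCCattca
Hist1h3c: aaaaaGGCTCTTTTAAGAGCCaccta
Hist1h4d: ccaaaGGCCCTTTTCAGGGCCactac
Hist1h1c: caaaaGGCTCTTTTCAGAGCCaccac
Hist1h1t: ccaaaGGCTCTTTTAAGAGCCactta
The capital core of Hist1h1e occurred in 25 members, that of Hist1h4d in 7 members, all of them H4 genes, and that of Hist1h3c and Hist1h1t in 6. Hist1h1c, which is on the polyadenylated list, and Hist1h1t, which is on the testis list, thus carried the same kind of site as the replication-type genes. In the annotated mRNA, 880 bases followed the stop codon of Hist1h1c and 1209 that of Hist1h1e, against 57 for Hist1h2ap. The longest run of adenosines in the mRNA was 12 bases in Hist1h2ap, 8 in Hist1h2ae and 6 in Hist1h1b and Hist1h1e. The 7 members with a run of at least 8 held 29.9% of the members' molecules, and whether such runs served as priming sites was not tested.

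The members lie in few places. On chromosome 13, 23 of them lie at chr13:21715763-22043676 and 31 at chr13:23531050-23934851, which together with 10 on chromosome 3, 2 on chromosome 11 and 1 on chromosome 6 makes up the whole set. In the annotation 62 of the 67 consist of 1 exon. In 12 cases an H2A gene and an H2B gene start back to back with 176 to 306 bases between them. Sequence alone did not always separate the members: in 26 genes over 50% of the mRNA, read in short windows, was identical to another member, and in Hist1h2ap this reached 92.4%. Reads from such stretches cannot be given to 1 gene, so the levels of Hist1h2ap and of Hist1h2br (99.8% shared) are uncertain. Hist1h1e overlaps Hist1h2be on the same strand and Hist3h2a overlaps Trim17, so molecules of these pairs can be confused too.

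Promoters of most members held short motifs in common. In the 250 bases before the start in RefSeq (GRCm38.p6), searched on both strands, CCAAT was present in 82.3% of the 62 members with an entry against 34.5% of 27025 promoters, and TATAAA in 46.8% against 13.0%. The H4 genes were an exception for CCAAT, with 3 of 12, against all H1, H2A and H2B genes with an entry and 8 of 10 H3 genes. The octamer ATTTGCAT, known from H2A and H2B promoters, was found in 13 members, 7 of them H2A and 6 H2B genes, against 1.61% of all promoters. AAACACA, known as the H1 box, was found in 5 of the 6 H1 genes against 6.22% of all promoters. These matches are descriptions of the letters and not of bound factors.

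Barcodes under 750 genes or over 10% mitochondrial UMIs were removed, which left 5077 control and 8712 Brca1 vKO cells. A UMI is a molecular tag, so a count of UMIs is a count of captured molecules. Cells were classed by the marker pairs Ddx4 and Dazl (germ), Clu and Amhr2 (Sertoli), Dlk1 and Dcn (stromal) and Acta2 and Myh11 (myoid), and called cycling when the proliferation genes Mki67 and Top2a together had at least 3 UMIs. The control had 924 germ, 2332 Sertoli, 739 stromal and 563 myoid cells, and the Brca1 vKO library 247, 4489, 1762 and 1346. Of the 4 markers per class that the gate did not use, all 4 were highest in their own class in both libraries for germ and Sertoli cells, 3 for myoid and 2 for stromal cells. Pdgfra was higher in the myoid than the stromal class of both libraries, Tcf21 in the control alone, and the myoid marker Des was higher in the stromal class. Levels are given as UMIs per 1000000 UMIs of the same cells (CPM). Neutrophil genes had at most 3.83 CPM in cycling cells of any control class, whereas their summed level with Brca1 vKO was 262 CPM in cycling germ, 142 CPM in cycling Sertoli, 14.5 CPM in cycling stromal and 1112 CPM in cycling myoid cells. Red blood cell genes lay between 251 and 2578 CPM in the cycling control classes and between 40.5 and 126 CPM in the cycling Brca1 vKO classes. Leydig cell genes had 13.6 CPM in cycling and 129.6 CPM in other Sertoli cells of the control, and in cycling stromal cells 2.68 CPM in the control and 158 CPM with Brca1 vKO. Macrophage genes in cycling stromal cells had 3.22 and 59.6 CPM in these libraries. In cycling myoid cells pericyte genes had 248 CPM in the control and 125 CPM with Brca1 vKO, and endothelial genes 10.3 and 125 CPM. Endothelial genes in cycling stromal cells had 172 and 148 CPM. The Sertoli markers, with those of the gate, summed to 68.0 CPM in cycling germ cells of the control and 123 CPM with Brca1 vKO. In cycling Sertoli cells they summed to 4646 and 4538.5 CPM. The part of any of these in the histone values was not tested, and 21 barcodes were shared between the libraries.

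All 67 members had at least 1 UMI in the classed cells, 65 had at least 20 and 32 had at least 1000. In all, 326675 of 252531989 UMIs fell on them. Hist1h1b, which encodes the linker histone H1.5, held 22.1% of these and Hist1h2ap, an H2A gene, 17.7%. With Hist1h1e (the linker histone H1.4), Hist1h4d and Hist1h2ae, 5 genes made up 67.5% of the members' UMIs. The lowest counts were those of Hist1h2bq with 8 UMIs and Hist1h4m with 4. In these genes 100% and 88.5% of the mRNA windows were shared with another member, so few reads could be given to them. Of the 12 back-to-back pairs, the H2A gene was the higher in 9 and the H2B gene in 3. For example, Hist1h2ap had 57765 UMIs and its neighbour Hist1h2br 537, whereas Hist1h2ac had 1391 and its neighbour Hist1h2bc, a gene of the polyadenylated list, 14377. Hist1h2br shares 99.8% of its windows with other members. The order within pairs that hold such genes therefore need not be that of their mRNAs. Number of UMIs across members went with mRNA length or the longest adenosine run only weakly (Spearman's rho 0.239 and 0.176 over 67 members that share libraries and depth).

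The first comparison was between cycling cells and cells that were not cycling. In somatic cells the replication-type genes were an order higher in cycling cells, and in germ cells of the control library they differed far less. The stromal and myoid values depended on how cells were classed: by clusters in place of marker pairs, which left 17 cycling stromal and 32 cycling myoid cells in the control, the ratios were 1.68 and 6.24. Summed over the 58 genes, the level in the control was 2527 CPM in cycling Sertoli cells and 226 CPM in the others, a ratio of 11.2 (10.9 to 11.5). Stromal cells had 5438 and 378 CPM with a ratio of 14.4 (13.9 to 14.9), and myoid cells 4410 and 226 CPM with a ratio of 19.5 (18.4 to 20.7). Germ cells of the control had 1186 CPM when cycling and 902 CPM when not, a ratio of 1.31 (1.26 to 1.37).

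The Brca1 vKO library repeated the large ratios of the somatic classes. Its ratios were 10.8 (10.6 to 10.999) in Sertoli, 15.5 (15.1 to 15.98) in stromal and 16.3 (15.6 to 16.99) in myoid cells. The stromal and myoid intervals overlap. In its germ cells the levels were 1381 and 400 CPM and the ratio was 3.45 (3.15 to 3.79). Cycling germ cells had the lowest replication-type level of the 4 classes in both libraries, at 0.469 (0.463 to 0.476) of that of cycling Sertoli cells in the control and 0.582 (0.570 to 0.594) with Brca1 vKO. Among cells that were not cycling the order was turned, with germ cells 3.9995 (3.83 to 4.18) times Sertoli cells in the control and 1.82 (1.66 to 1.99) times with Brca1 vKO. Cycling was called by a fixed number of UMIs, and cycling germ cells were the deepest. In the control their median was 42940 UMIs, against 26780 in cycling Sertoli, 21703 in stromal and 19749 in myoid cells. The classes were not compared with this call matched for depth.

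The germ cells not called cycling were much shallower than the cycling ones. In the control their median was 3461 UMIs against 42940, and 185 of these 301 cells had fewer than 5000. With Brca1 vKO the medians were 10579 and 37887 UMIs. Among control germ cells with at least 10000 UMIs the ratio was 2.74, and with cycling called by a rate of 2 UMIs of both genes per 10000 it was 2.69. With a limit of 5% mitochondrial UMIs in place of 10%, at no added limit on depth, the control ratio was 0.731, so its direction depended on which cells were kept.

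**Figure D1:**
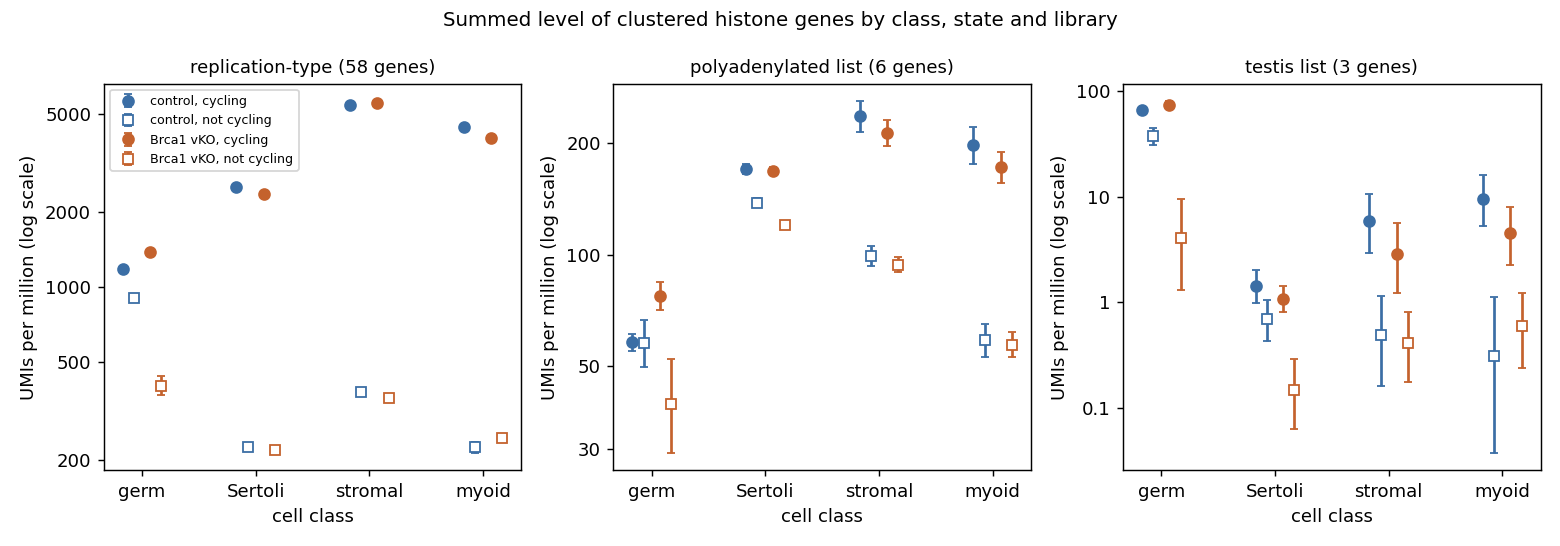
Summed level in UMIs per 1000000 on log axes for the 58 replication-type genes (left), the 6 genes of the polyadenylated list (centre) and the 3 of the testis list (right), by cell class. Filled circles are cycling and open squares not cycling cells, blue the control and orange the Brca1 vKO library, and bars are exact intervals at 95% for counting error. Replication-type genes differ by 10.8 to 19.5 times between states in the somatic classes and by 1.31 and 3.45 times in germ cells, while the testis list is highest in germ cells within each state and library.

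Called gene by gene, a member counted as higher when its CPM in cycling cells was at least 2 times that in the others, where the 2 sums held 20 UMIs or more between them. In the control this held for 55 of 60 members in Sertoli cells against 5.39% of all genes tested, for 38 of 42 in stromal cells against 7.78%, and for 34 of 38 in myoid cells against 7.52%. In germ cells it held for 3 of 55 members, against 13.5% of all genes. In the Brca1 vKO library it held for 55 of 61 members in Sertoli cells against 4.35%, 43 of 46 in stromal cells against 8.6%, 39 of 43 in myoid cells against 8.15% and 31 of 38 in germ cells against 5.68%. No member passed the same size in the other direction in any of these 8 comparisons. The 3 members past 2-fold in control germ cells were Hist1h2ai (2.17, 1.38 to 3.59), Hist1h2bk (2.26, 0.846 to 8.50) and Hist1h2ac (2.41, 0.904 to 9.04), named after their values were seen, and the intervals of the latter 2 hold 1.

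The ratios spread widely among the members. In control stromal cells the lowest among members with at least 20 UMIs was that of Hist3h2a, at 0.847 (0.569 to 1.23). Hist1h2ap stood there at 906 CPM in cycling and 7.62 CPM in other cells, a ratio of 119 (94.8 to 151). Hist1h3c, an H3 gene, had 131 and 1.07 CPM there, a ratio of 122 (66.9 to 247). Hist1h3b was at 0 in the stromal cells that were not cycling and at 39.7 CPM in the cycling ones. Lower ratios were found among abundant genes too. Hist1h1e had 829 and 151 CPM in the same cells, a ratio of 5.50 (5.12 to 5.90), and Hist1h4d had 652 and 81.6 CPM, a ratio of 7.99 (7.31 to 8.74). Hist1h1e and Hist1h4d thus remained well measured in stromal cells that were not cycling, where they were the highest of the named members, ahead of Hist1h1c at 50.1 CPM and Hist1h1b at 42.3 CPM. Hist2h2ac, an H2A gene of the small cluster on chromosome 3, was like them, with 96.6 and 24.1 CPM and a ratio of 4.005 (3.29 to 4.87).

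Genes of the polyadenylated list varied less with the cell cycle. Their summed ratio in the control was 1.23 (1.18 to 1.29) in Sertoli, 2.37 (2.12 to 2.66) in stromal, 3.35 (2.86 to 3.91) in myoid and 1.004 (0.860 to 1.18) in germ cells. With Brca1 vKO it was 1.39 (1.35 to 1.44), 2.27 (2.06 to 2.49), 3.0005 (2.65 to 3.39) and 1.96 (1.46 to 2.68). Of the list, 2 of 6 genes passed 2-fold in control Sertoli cells, namely Hist1h1c (linker histone H1.2) at 2.43 (2.23 to 2.65) and Hist1h2be at 9.44 (6.70 to 13.7). The others there lay between 0.695 (0.614 to 0.787) for Hist3h2a and 1.36 (0.834 to 2.21) for Hist2h2be. Hist1h2bc had 76.8 CPM in cycling and 84.7 CPM in other Sertoli cells of the control, and 80.002 and 75.3 CPM in those of the Brca1 vKO library. It was the only one of the 3 leading H2B genes with no higher level in cycling Sertoli cells of the control. Hist1h2bj, by contrast, had 15.4 and 1.43 CPM there and Hist1h2bm 12.1 and 0.530 CPM.

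**Figure D2:**
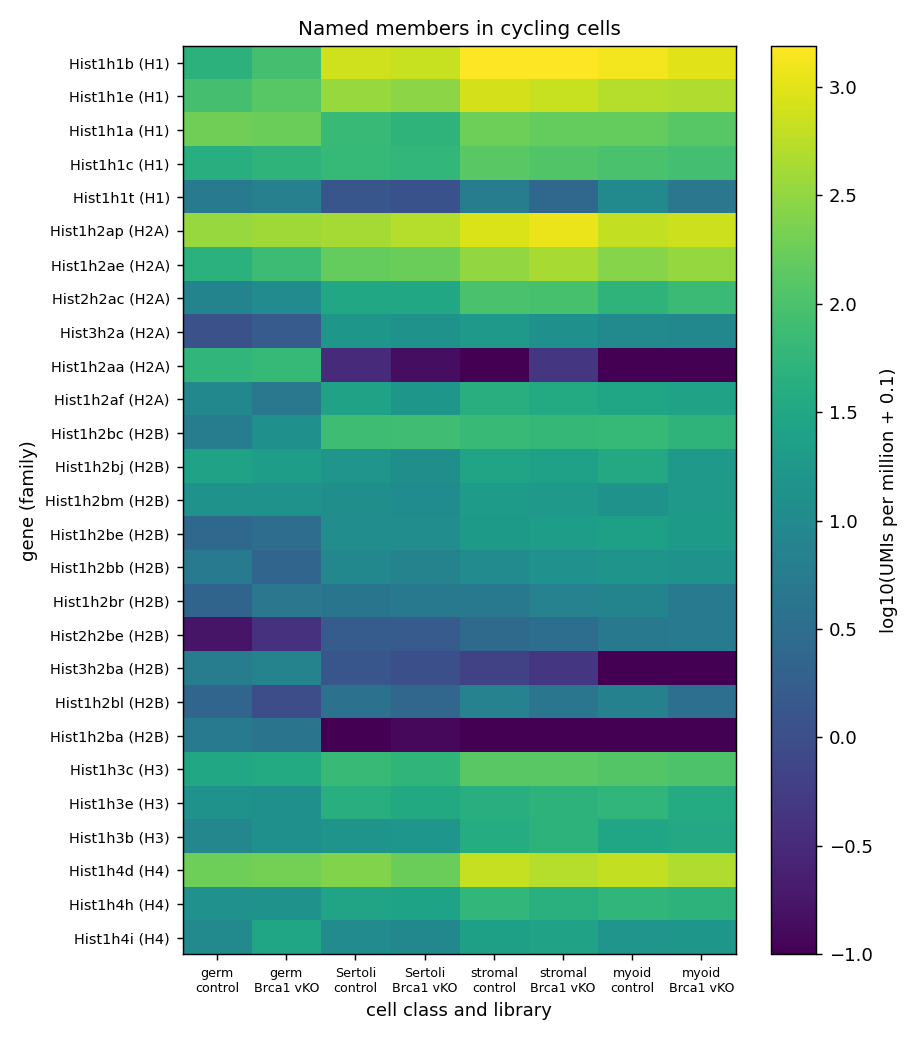
Level of the named members (rows, by family) in cycling cells of each class and library (columns), as log10 of UMIs per 1000000 plus 0.1. Hist1h1b and Hist1h2ap are the brightest rows in somatic cells, and Hist1h2aa and Hist1h2ba are at or near the bottom of the scale outside germ cells.

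Within cycling cells, the position in the cycle was described by the share of UMIs of known S phase genes among those of S phase and G2/M genes together, and the cycling cells of each class were cut into 3 groups of equal size over both libraries. In germ cells the replication-type level rose with this share, at 472, 1399 and 1690 CPM from the lowest to the highest group in the control and 544, 1486 and 2048 CPM with Brca1 vKO. Stromal cells had their peak in the middle group, with 3368, 9788 and 3958 CPM in the control and 2974, 9468 and 3511 CPM with Brca1 vKO. Myoid cells had the same order of peak, at 6468 CPM in the middle group of the control and 5894 CPM in that of the Brca1 vKO library. In Sertoli cells the level was highest in the group with the lowest share, at 2963, 2793 and 1927 CPM in the control and 3026, 2449 and 1955 CPM with Brca1 vKO. The groups are ranges of a continuous score, and in the control 162 germ and 108 Sertoli cells lay within 2 percentage points of a limit. The limits were set within each class, at shares of 28.1% and 41.2% in germ and 12.2% and 29.1% in Sertoli cells. In stromal cells they were 13.98% and 39.1%, and in myoid cells 16.1% and 36.9%. Groups of the same name thus cover different shares, and classes were not compared at matched positions in the cycle.

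Single members did not all follow the sum. Hist1h1a in control germ cells had 71.5, 238 and 263 CPM over the 3 groups and Hist1h2ap 75.6, 421 and 554 CPM, while Hist1h4d was highest in the middle group, at 107, 221 and 209 CPM. In Sertoli cells of the control Hist1h4d had 371, 265 and 144 CPM, the order of the sum. Hist1h1b (805, 853 and 661 CPM), Hist1h2ap (442, 461 and 363 CPM) and Hist1h1a (54.9, 79.9 and 61.96 CPM) were highest in the middle group there. Slbp, the gene of the stem-loop binding protein, rose with the S share in Sertoli cells too, at 113, 148 and 182 CPM in the control. The level of Slbp and that of the replication-type mRNAs thus went opposite ways over the 3 groups of Sertoli cells. Over those of germ cells they went the same way. This is given as a description, since the groups of these classes cover different shares.

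Cells also differed within a class. After each cell was thinned to 5000 UMIs, leaving out shallower cells, a cycling Sertoli cell of the control had a median of 9 replication-type UMIs over 584 cells and a cycling stromal cell 7 over 81 cells. The highest such cell had 111 UMIs in the Sertoli and 94 UMIs in the stromal class. Cycling germ cells of the control had a median of 3 UMIs over 583 cells, with 24.4% of cells at 10 UMIs or more against 49.1% of cycling Sertoli cells. In the Brca1 vKO library 32.7% of 171 cycling germ cells and 50.5% of 1244 cycling Sertoli cells reached 10 UMIs. Of the germ cells not called cycling, 185 of 301 in the control and 32 of 75 with Brca1 vKO were too shallow to be thinned.

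The linker histone genes differed in makeup between germ and somatic cells. Linker histone H1 sits where DNA enters and leaves the nucleosome, and its variants are encoded by separate genes. In cycling germ cells of the control Hist1h1a, the gene of H1.1, gave 48.1% of the UMIs of the 6 H1 genes and Hist1h1b 12.3%. In cycling Sertoli cells Hist1h1a gave 5.19% and Hist1h1b 59.6%, and the stromal and myoid classes had 54.7% and 59.3% for Hist1h1b. The Brca1 vKO library had 38.0% for Hist1h1a and 19.2% for Hist1h1b in cycling germ cells, and 4.70% and 61.6% in cycling Sertoli cells.

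As levels, Hist1h1a stood at 192 CPM in cycling germ cells and 67.4 CPM in cycling Sertoli cells of the control, a ratio of 2.85 (2.69 to 3.01). With Brca1 vKO it stood at 175 and 52.9 CPM, a ratio of 3.30 (3.08 to 3.54). Against cycling stromal cells, which had 186 CPM in the control, its ratio was 1.03 (0.925 to 1.15), so the level of Hist1h1a as such was not particular to germ cells. Hist1h1b had 49.0 CPM in cycling germ cells against 773, 1525 and 1281 CPM in cycling Sertoli, stromal and myoid cells of the control. Its germ over Sertoli ratio was 0.0634 (0.0599 to 0.0671) in the control and 0.128 (0.118 to 0.138) with Brca1 vKO. It was thus the low Hist1h1b, more than a high Hist1h1a, that set cycling germ cells apart from stromal and myoid cells. In cells that were not cycling, Hist1h1e gave most of the H1 UMIs of stromal (59.3%) and myoid (60.3%) cells of the control, and Hist1h1a still 41.0% of those of germ cells.

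Because these 2 H1 genes differed in where they were high, their promoters are printed, each with 250 bases up to the start, with matches of the TATA box, the CCAAT box (on either strand) and the H1 box, as spelled above, in capitals. Hist1h1a lies on the plus strand with its window at chr13:23763418-23763667 and Hist1h1b on the minus strand with its window at chr13:21780626-21780875, both in GRCm38.p6 from RefSeq.
Hist1h1a: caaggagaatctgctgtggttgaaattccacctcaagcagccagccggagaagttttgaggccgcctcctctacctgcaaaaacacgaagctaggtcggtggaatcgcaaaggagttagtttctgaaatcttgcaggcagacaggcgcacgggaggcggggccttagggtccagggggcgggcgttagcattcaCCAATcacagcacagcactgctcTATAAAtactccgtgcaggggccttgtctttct
Hist1h1b: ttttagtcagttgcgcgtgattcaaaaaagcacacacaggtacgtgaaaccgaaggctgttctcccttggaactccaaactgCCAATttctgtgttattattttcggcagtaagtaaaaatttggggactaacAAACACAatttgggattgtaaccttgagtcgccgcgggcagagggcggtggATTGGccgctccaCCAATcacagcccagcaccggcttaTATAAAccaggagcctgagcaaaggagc
Both windows hold a TATA box, 33 bases before the start in Hist1h1a and 28 in Hist1h1b. Hist1h1a has 1 CCAAT match, 56 bases before the start, and Hist1h1b has 3, at 168, 66 and 53. AAACACA was found in the window of Hist1h1b, 117 bases before the start, and these letters are not in that of Hist1h1a.

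**Figure D3:**
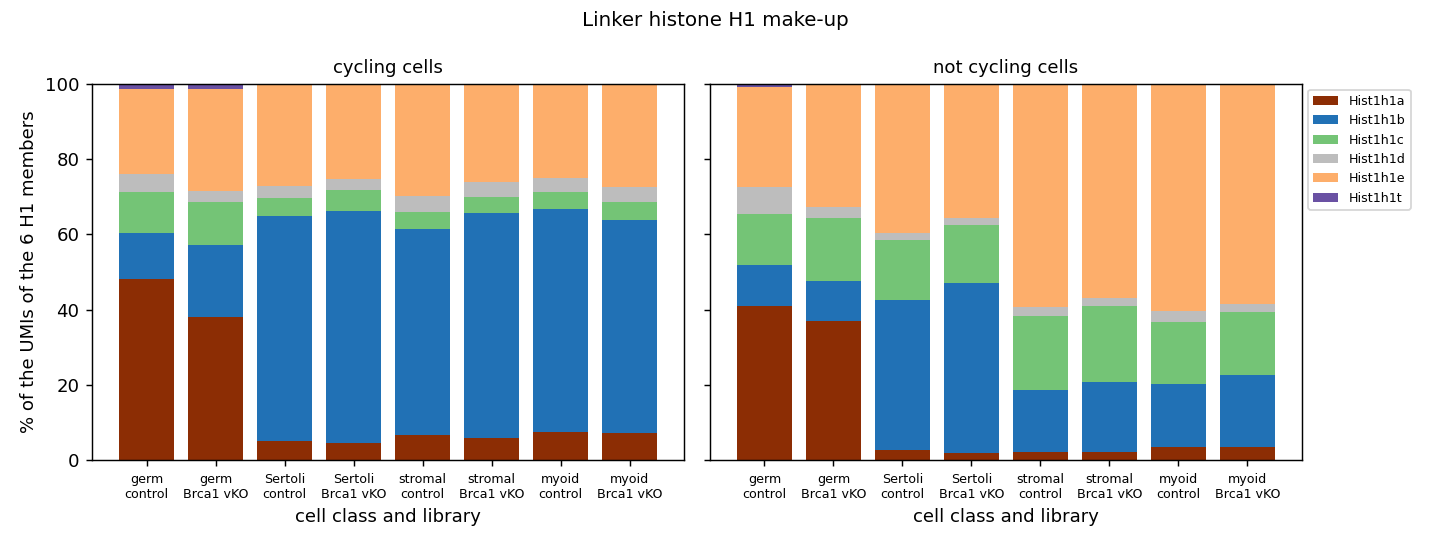
Share in percent of the UMIs of the 6 H1 genes given by each gene, in cycling cells (left) and cells not cycling (right) of each class and library, as stacked bars from 0 to 100. Hist1h1a gives 48.1% and 38.0% in cycling germ cells and at most 7.44% in the cycling somatic classes, where Hist1h1b gives 54.7% to 61.6%.

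Set gene by gene against cycling Sertoli cells, most members were lower in cycling germ cells. In the control 31 of 63 members were at least 2-fold lower and 7 at least 2-fold higher, and past 2-fold in either direction were 56.7% of all genes tested, so the share of members past that size (38 of 63) was near the background. In the Brca1 vKO library 24 of 63 were lower and 8 higher, against 54.6% of all genes. The median ratio of the members was 0.512 in the control, beside 1.29 over all genes, and 0.603 in the Brca1 vKO library, beside 1.08. The 2 libraries put the members in much the same order, with a Spearman's rho of 0.913 over 63 members, whose levels in each library share its depth. Of the members past 2-fold, 6 were higher and 21 lower in both libraries, and none went opposite ways. The same overlap and correlation over all genes were not computed, so this repeat cannot be read as particular to the histone genes.

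The members lower in germ cells included abundant somatic genes. Hist3h2a had 0.976 CPM in cycling germ and 16.7 CPM in cycling Sertoli cells of the control, a ratio of 0.0586 (0.0378 to 0.0872). Hist1h2bc had 5.82 and 76.8 CPM, a ratio of 0.0758 (0.0639 to 0.0894), and in the Brca1 vKO library 0.156 (0.125 to 0.194). Hist1h2ap was closer to equal in the control, at 349 and 421 CPM in the control, a ratio of 0.828 (0.805 to 0.852). Among the higher ones outside the testis list, Hist3h2ba, an H2B gene, had 5.78 and 1.22 CPM in the control, a ratio of 4.75 (3.16 to 7.38), and 7.87 (5.15 to 12.04) in the Brca1 vKO library. It was at 0 in all myoid cells of both libraries. Hist3h2ba and Hist3h2a, neighbours on chromosome 11 at chr11:58948920-58956830, thus had opposite patterns between germ and Sertoli cells.

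**Figure D4:**
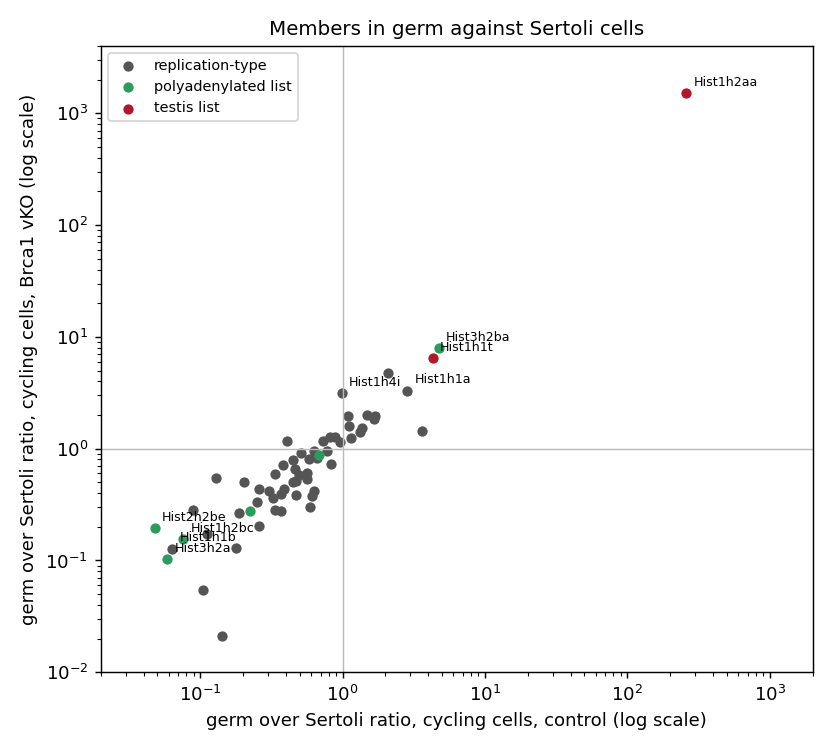
Ratio of UMIs per 1000000 in cycling germ over cycling Sertoli cells for 62 members, in the control (horizontal) and the Brca1 vKO library (vertical), both log axes. Grey marks replication-type genes, green the polyadenylated list and red the testis list, and grey lines mark a ratio of 1. Points lie along the diagonal, most of them below 1 in both libraries, with Hist1h2aa far above, and 1 member at 0 in control Sertoli cells (Hist1h2ba) is left off.

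The testis list was carried by Hist1h2aa, the gene of the testis histone TH2A. It had 1500 UMIs (56.3 CPM) in cycling germ cells of the control and 429 (63.1 CPM) in those of the Brca1 vKO library. In cycling Sertoli cells it had 5 UMIs (0.217 CPM) and 2 UMIs (0.0416 CPM), and in cycling stromal and myoid cells 0 and 0 in the control and 1 and 0 with Brca1 vKO. With the floor set at 3 counts for each of the groups at 0, it was at least 34.95-fold higher in cycling germ than in cycling stromal cells of the control, and at least 27.4-fold and 51.6-fold higher than in cycling myoid cells of the control and the Brca1 vKO library. For comparison, the germ markers that the gate did not use differed among themselves in cycling Sertoli and cycling germ cells of the control. Zbtb16 had 1.57 and 264 CPM, Sall4 0.391 and 92.7 CPM, Uchl1 56.4 and 892 CPM and Mael 1.17 and 224 CPM.

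Its neighbour Hist1h2ba, which encodes TH2B and starts 306 bases away on the other strand, was lower, at 5.10 and 3.97 CPM in cycling germ cells. It had 0 UMIs in cycling Sertoli cells of the control, which makes it at least 39.1-fold higher in germ cells, and 1 UMI in those of the Brca1 vKO library. Hist1h1t, the gene of the testis linker histone H1t, was not confined to germ cells in either library. Its level in the control was 5.22 CPM in cycling germ, 1.22 CPM in cycling Sertoli, 5.91 CPM in cycling stromal and 9.58 CPM in cycling myoid cells. With Brca1 vKO the germ class was the highest, at 6.62 CPM against 1.02, 2.48 and 4.49 CPM in the same somatic order. The germ over myoid ratio was 0.545 (0.314 to 1.02) in the control and 1.47 (0.751 to 3.16) with Brca1 vKO, so that germ and myoid cells could not be told apart at this depth. In control myoid cells 14 of its 15 UMIs lay in cycling cells.

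Germ cells were further divided by Gfra1, a receptor gene of spermatogonial stem cells, and Kit, a receptor gene of differentiating spermatogonia, with at least 3 UMIs of one and none of the other. The control had 197 Gfra1 and 127 Kit cells and the Brca1 vKO library 72 and 2. In the control the replication-type level was 852 CPM (832 to 871) in Gfra1 cells and 1622 CPM (1591 to 1653) in Kit cells, of which all 127 were cycling. Hist1h1a had 113 and 321 CPM in these cells, and Hist1h2aa 17.2 and 109 CPM. Hist1h1b went the other way, with 58.0 CPM in Gfra1 and 25.7 CPM in Kit cells, so the preference for Hist1h1a over Hist1h1b was larger in Kit cells.

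The comparison of genotypes was made in cycling cells. The summed replication-type level differed little, with the germ class higher and the Sertoli and myoid classes lower in the mutant. The Brca1 vKO over control ratio was 1.16 (1.14 to 1.19) in germ, 0.939 (0.930 to 0.948) in Sertoli, 1.02 (0.992 to 1.04) in stromal and 0.905 (0.877 to 0.934) in myoid cells. The targeted gene Brca1 had 76.1 CPM in cycling germ cells of the control and 49.0 CPM in those of the mutant, a ratio of 0.644 (0.572 to 0.723), and its ratio in the cycling somatic classes lay between 0.525 and 0.772, so the counts of its mRNA do not by themselves show the germ cell deletion. In germ cells that were not cycling, the ratio of the replication-type genes was 0.444 (0.402 to 0.488), in cells that differed in depth as given above.

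In cycling germ cells 4 members were at least 2-fold higher and 3 at least 2-fold lower in the Brca1 vKO library, of 56 with at least 20 UMIs, while 17.1% of all genes passed that size in either direction. The members' share was thus not above that of all genes. The higher ones were Hist1h4i, Hist1h2bc, Hist1h2br and Hist4h4 (2.18, 1.08 to 4.24) and the lower ones Hist1h2bl, Hist1h2bb and Hist1h3f (30 UMIs in the control and 1 with Brca1 vKO, 0.131, 0.00320 to 0.786), of which Hist4h4 and Hist1h3f are named after their values were seen. Among the 47 members with at least 50 UMIs the largest ratio was that of Hist1h4i, an H4 gene, with 10.1 CPM in the control and 28.5 CPM with Brca1 vKO, a ratio of 2.82 (2.33 to 3.40). Hist1h2bc followed with 5.82 and 12.5 CPM, a ratio of 2.15 (1.63 to 2.82), and Hist1h2br with 2.14 and 4.41 CPM, a ratio of 2.06 (1.28 to 3.27), whose reads are largely shared with other members. The smallest were Hist1h2bl with 2.25 and 0.883 CPM and a ratio of 0.392 (0.138 to 0.904), Hist1h2bb at 0.426 (0.232 to 0.728) and Hist1h2af at 0.536 (0.358 to 0.778).

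The abundant genes moved by less. Hist1h1b rose from 49.0 to 88.6 CPM between the libraries, a ratio of 1.81 (1.64 to 1.99). Hist1h1b and Hist1h2bc were far higher in cycling Sertoli than in cycling germ cells. Sertoli markers were also higher in cycling germ cells of the Brca1 vKO library, at 123 CPM against 68.0 CPM. The part of Sertoli RNA in the germ ratios of these 2 genes was not tested. Hist1h2ae had a ratio of 1.57 (1.41 to 1.74) and Hist1h1e one of 1.38 (1.27 to 1.49). Hist1h2ap and Hist1h4d were close to 1, at 1.13 (1.08 to 1.18) and 1.16 (1.09 to 1.23). Hist1h1a was slightly lower, at 0.912 (0.855 to 0.971). Of the testis list, Hist1h2aa was at 1.12 (1.005 to 1.25), Hist1h1t at 1.27 (0.886 to 1.79) and Hist1h2ba at 0.778 (0.495 to 1.18), and the last 2 intervals hold 1.

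**Figure D5:**
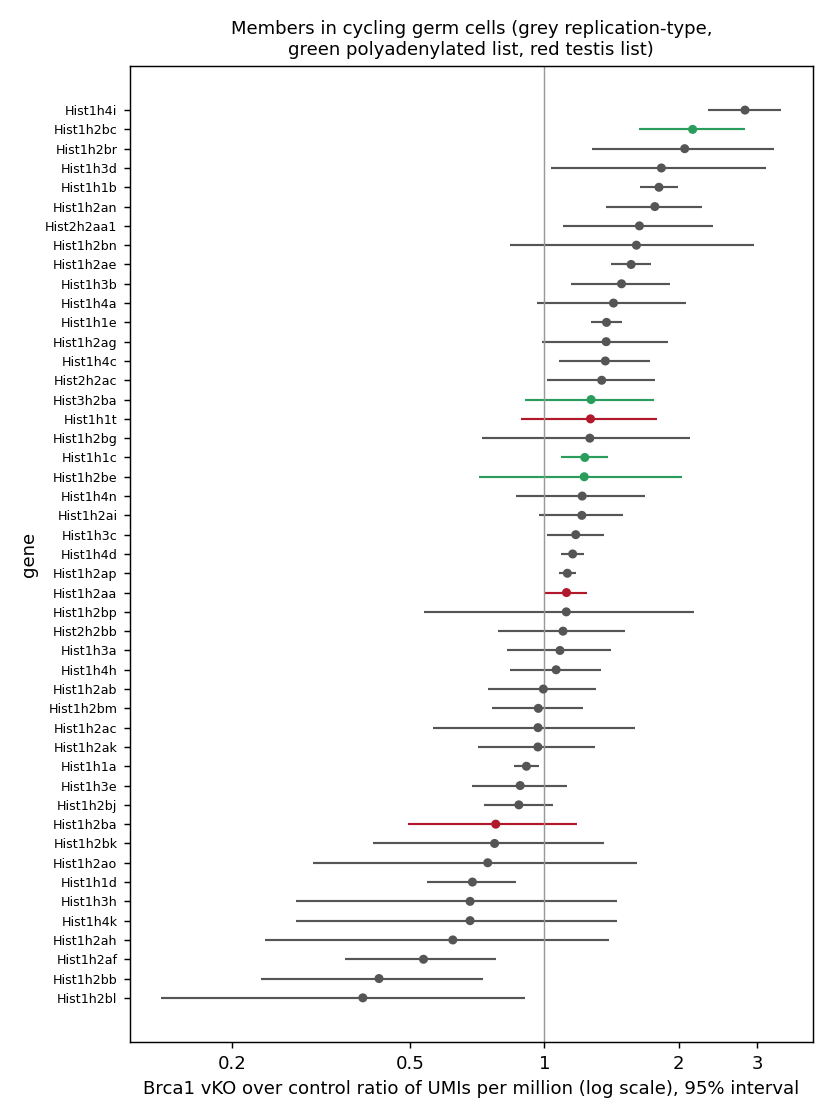
Brca1 vKO over control ratio of UMIs per 1000000 in cycling germ cells for the 47 members with at least 50 UMIs, on a log axis, with exact intervals at 95% for counting error (grey replication-type, green polyadenylated list, red testis list). Of these, 17 intervals lie above 1, 5 below 1 and 25 hold 1, with Hist1h4i highest at 2.82 and Hist1h2bl lowest at 0.392. The share of all genes whose interval leaves out 1 was not computed, so these counts are not a result about the members.

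The makeup of the germ class differed between the libraries, which touches every germ value above. Kit cells, which had the higher replication-type level in the control, were nearly absent from the Brca1 vKO library. The place of cycling germ cells in the cycle differed too. From the lowest to the highest S share, the groups held 206, 230 and 187 of 623 cells in the control. With Brca1 vKO they held 58, 36 and 78 of 172 cells. The part of this in the genotype ratios was not tested. Within cycling Gfra1 cells, 164 in the control and 51 with Brca1 vKO, the replication-type level was 920 and 1396 CPM, a ratio of 1.52 (1.45 to 1.59). There Hist1h2aa had 19.3 and 68.0 CPM, a ratio of 3.52 (2.75 to 4.50), Hist1h4i one of 3.39 (2.41 to 4.75) and Hist1h2bc one of 3.37 (2.09 to 5.41). Hist1h1a was higher too, at 1.36 (1.19 to 1.55), and Hist1h1b at 1.82 (1.54 to 2.14). The direction of Hist1h1a thus depended on whether all cycling germ cells or only Gfra1 cells were compared.

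In the cycling somatic classes few members passed 2-fold. In Sertoli cells 1 of 62 did, in the lower direction, against 4.74% of all genes in either direction, in stromal cells 0 of 46 against 4.39%, and in myoid cells 2 of 45 against 5.1%. The 3 calls were Hist1h4f at 0.358 (0.155 to 0.807) in Sertoli cells, and Hist4h4 at 2.98 (1.38 to 7.38) and Hist1h1t at 0.469 (0.193 to 1.11) in myoid cells, all of them on fewer than 50 UMIs. Several abundant members moved alike in the 3 somatic classes. Hist1h2ap was higher in the Brca1 vKO library, at 1.27 (1.24 to 1.30) in Sertoli, 1.30 (1.22 to 1.38) in stromal and 1.16 (1.07 to 1.25) in myoid cells, and so was Hist1h2ae, at 1.13, 1.35 and 1.26. Hist1h4d was lower, at 0.726 (0.702 to 0.751), 0.823 (0.763 to 0.888) and 0.773 (0.710 to 0.843), and so was Hist1h1e, at 0.809, 0.819 and 0.905. In cycling germ cells Hist1h4d and Hist1h1e lay on the other side of 1, as given above, and the difference was not tested.

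The other genes of the histone supply were taken from lists of 20 genes for histone mRNA processing, transcription and chaperones and of 10 replacement variants. Between cycling cells and the others in the control, 9 of 19 supply genes with enough UMIs were at least 2-fold higher in stromal cells, 8 of 19 in myoid, 2 of 19 in Sertoli and 0 of 20 in germ cells, beside 7.78%, 7.52%, 5.39% and 13.5% of all genes, and none was 2-fold lower. With Brca1 vKO the counts were 6 of 19 in stromal, 6 of 19 in myoid, 2 of 20 in Sertoli and 2 of 19 in germ cells, the last being Asf1b and Chaf1a, beside 8.6%, 8.15%, 4.35% and 5.68% of all genes. Asf1b, a histone chaperone, and Chaf1a, a subunit of the chromatin assembly factor that places histones behind the replication fork, were among them in all 3 somatic classes. Slbp passed in stromal and myoid cells. Of the replacement variants in the control, 4 of 10 passed in Sertoli cells and 5 of 10 in stromal and in myoid cells, among them H2afz and H2afx. None of the 10 passed in germ cells, and the shares of all genes are those given above. H2afz had 2314 CPM in cycling and 341 CPM in other stromal cells of the control. With Brca1 vKO 3 of 10 passed in Sertoli cells, without H2afz, 5 of 10 in stromal and in myoid cells and 0 of 10 in germ cells.

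Of 20 supply genes, 8 were at least 2-fold higher in cycling germ than in cycling Sertoli cells of the control and none lower, which is not above the 56.7% of all genes past 2-fold in either direction, with a list median of 1.80 beside 1.29 over all genes. Nasp, a chaperone of H1 and H3-H4, had 694 CPM in germ and 254 CPM in Sertoli cells, and Casp8ap2, a protein of the bodies where histone mRNA is made, 201 and 74.8 CPM. With Brca1 vKO 7 of 20 were higher and 1, Cpsf2, lower, which is not above the 54.6% of all genes past 2-fold in either direction. Of 10 replacement variants, 4 were at least 2-fold lower in germ cells in the control and 3 with Brca1 vKO. None was 2-fold higher, and these counts too are not above the shares of all genes. In the control H2afz had 585 CPM in germ and 1981 CPM in Sertoli cells, and H2afx 61.5 and 382 CPM. Between genotypes 0 of 20 supply genes passed 2-fold in cycling germ and Sertoli cells and 0 of 19 with enough UMIs in cycling stromal and myoid cells, as did 0 of 10 replacement variants in each class, beside 17.1%, 4.74%, 4.39% and 5.1% of all genes in germ, Sertoli, stromal and myoid cells. Slbp, for example, was at 254 and 309 CPM in cycling germ cells of the control and the Brca1 vKO library.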

How the data were processed

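Testes of 1 control and 1 Brca1 vKO mouse at PD7 were profiled on the 10x Genomics Chromium platform. The deposited tables hold raw UMI counts per gene and barcode, which the authors made with Cell Ranger 6.0.2 on mm10 (pre-built 10x reference), without normalization and before their filter on cells. The control table held 120568700 UMIs in 5812 barcodes and the Brca1 vKO counts summed to 165062097 UMIs in 9456. Submitters' notes also list R 4.2.3 and Seurat 4.3.0.1.

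Barcodes under 750 genes or over 10% mitochondrial UMIs were removed. For each marker pair, UMIs per 10000 were cut at Otsu's threshold on the log(1 + value) scale over both libraries, and a cell got a class when exactly 1 pair was above it, which classed 4558 and 7844 cells. Doublets marked by Scrublet (190 and 273 cells, scanpy 1.11.5) were kept and left out in an alternative. UMIs were summed per gene, class, state and library and scaled to 1000000 UMIs of the same cells (CPM), so counts were not divided by gene length. Levels have exact Poisson and ratios exact conditional intervals (scipy 1.17.1). Cells are not replicates, so no test was made, and a call is by size only: a ratio of at least 2 or at most 0.5 where the 2 sums held 20 UMIs or more between them. No other columns of per-sample values were present in the tables. Stem-loops were searched in GENCODE M21 mRNAs, promoters in RefSeq. The ratio and interval code was tested on simulated data.

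The members, gene lists and the rule for named genes were chosen with earlier results of these data known. Named were, per family, the 3 members with most UMIs, the polyadenylated and testis lists, the 3 largest and 3 smallest Brca1 vKO over control ratios in cycling germ cells and germ over Sertoli ratios in cycling control cells (at least 50 UMIs), and the supply and replacement lists. Alternatives changed the filter, class, state, depth, scaling and gene set, and those with Gfra1 cells, without Hist1h2ap or Hist1h1b, and the depth of the polyadenylated list were chosen after seeing the data.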

Additional observations from a re-analysis of the deposited data

Results flagged for a closer look

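The Brca1 vKO over control ratio of the replication-type genes in cycling cells lay on different sides of 1 between classes. It was 1.16 in germ cells against 0.939 in Sertoli cells and 0.905 in myoid cells. The intervals of the germ ratio and of each of these for counting error do not overlap. The makeup of the germ class differed between the libraries, as given above, and the Sertoli ratio lay above 1 in thinned cells. The difference between classes was not tested, since each genotype had 1 library.

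Barcodes with fewer than 750 genes, which none of the reported comparisons used and which entered the setting with all deposited barcodes alone, also carried replication-type UMIs. Their level was 902 CPM over 485 barcodes in the control and 1466 CPM over 546 barcodes in the Brca1 vKO library, between those of cycling Sertoli cells and of Sertoli cells that were not cycling.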

How the results depend on the processing

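No paired analysis was possible because each genotype had 1 library, and for the same reason no replicate could be left out. In what follows the cycling over not cycling ratio is that of the control (1.31 in germ, 11.2 in Sertoli, 14.4 in stromal and 19.5 in myoid cells as reported), the genotype ratio is Brca1 vKO over control in cycling cells (1.16, 0.939, 1.02 and 0.905), both for the summed replication-type genes, and the cause of each change was not tested. Over all settings the cycling ratio stayed above 1 in 113 of 114 values of both libraries, and the genotype ratio was above 1 in 14 of 14 values in germ, 1 of 13 in Sertoli, 12 of 13 in stromal and 1 of 13 in myoid cells. The genotype directions of Sertoli, stromal and myoid cells thus each turned in 1 setting (thinned cells, without Hist1h2ap, and cells with at least 10000 UMIs).

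With all deposited barcodes the cycling ratio in Sertoli cells was 10.9. With at most 5% mitochondrial UMIs it was 0.731 in germ, which turned its direction, and 9.42 in Sertoli cells, and the genotype ratio was 1.23 and 0.920. With classes by the largest excess the cycling ratio was 10.5 in Sertoli, 13.3 in stromal and 15.04 in myoid cells, and the genotype ratio 0.986 in Sertoli and 0.982 in myoid cells. Classes by clusters left 17 cycling stromal and 32 cycling myoid cells of the control, with cycling ratios of 1.68 and 6.24 and genotype ratios of 1.21 in germ and 1.39 in stromal cells. With cycling called by rate the cycling ratio was 2.69 in germ, 14.9 in Sertoli and 21.2 in myoid cells, and the genotype ratio 1.10, 0.913 and 0.800. With 0 UMIs required of cells not cycling, the Sertoli ratio was 12.9. Without Scrublet doublets the genotype ratio was 1.197 in germ and 0.955 in myoid cells. Thinned to 5000 UMIs per cell, the cycling ratio was 1.14, 14.1, 13.3 and 16.6, and the genotype ratio 1.08, 1.03, 1.05 and 0.872, in germ, Sertoli, stromal and myoid cells. In cells with at least 10000 UMIs the cycling ratio was 2.74 in germ and 13.6 in Sertoli cells and the genotype ratio 1.19, 0.953 and, in myoid cells, 1.03, while the cycling ratio of the polyadenylated list was 1.24 in control germ cells and 1.499, 2.54 and 4.22 in Sertoli, stromal and myoid cells of the Brca1 vKO library. Median-of-ratios scaling gave cycling ratios of 1.23, 10.9 and 13.8 in germ, Sertoli and stromal cells. With replication-type genes defined by the stem-loop the cycling ratio was 1.25, 8.33, 9.30 and 12.7, and the genotype ratio 0.973 in Sertoli and 0.967 in myoid cells. Among settings chosen after seeing the data, Gfra1 cells had a cycling ratio of 2.53, a genotype ratio of 1.52 and one of 2.13 for the polyadenylated list. Without Hist1h2ap the cycling ratio was 1.16, 9.91, 12.2 and 17.1, and the genotype ratio 0.873 in Sertoli, 0.961 in stromal and 0.861 in myoid cells. Without Hist1h1b the cycling ratio was 11.7 in stromal and 15.2 in myoid cells, and the genotype ratio 1.14 in germ, 0.957 in Sertoli and 0.954 in myoid cells.

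Counts of members called depended on the UMIs required and the fold. The share of all genes called was not computed at these other settings. The counts below therefore show only how the calls changed, and cannot be set against all genes. With no minimum, 8 of 66 members were higher in cycling control germ, 58 of 63 in stromal and 56 of 63 in myoid cells. In Brca1 vKO germ cells 50 of 64 were. At 100 UMIs these were 1 of 34, 13 of 14, 13 of 13 and 14 of 16. In stromal and myoid cells of the Brca1 vKO library they were 22 of 25 and 13 of 15. At 1.5-fold 21 of 55 passed in control germ cells. Between genotypes, with no minimum, 5 of 66 were lower in germ cells, and of 67 in Sertoli cells 1 was higher and 4 lower. Of 65 in stromal cells 4 were higher and 4 lower, and of 62 in myoid cells 4 were higher and 7 lower. At 100 UMIs 2 of 35 were higher and 1 lower in germ cells. In Sertoli cells 0 of 51 were lower, and of 18 in myoid cells 0 were higher and 0 lower. At 1.5-fold 13 of 56 were higher and 5 lower in germ cells, and of 62 in Sertoli cells 1 was higher and 6 lower. Of 46 in stromal cells 1 was higher and 4 lower, and of 45 in myoid cells 3 were higher and 7 lower.

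Depth limits members with few UMIs and germ cells not called cycling, and 1 library per genotype limits every statement on Brca1.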
